A study of Aedes aegypti with 19 samples.

Results

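HSP70Ba and HSP70Bb are the only genes in the deposited tables whose symbol starts with HSP70, which makes 2 genes of 19381. HSP70 proteins are chaperones that use ATP to bind and release unfolded stretches of other proteins, with J-domain proteins and nucleotide exchange factors as helpers. Insects carry constitutive relatives that are made at all times and heat-inducible copies that stay nearly silent until heat or other protein-damaging stress, when heat shock factor switches them on. In mosquitoes, the warmth of a blood meal is a known trigger of HSP70 within hours of feeding. The members were selected on the gene symbol, and HSP70Bb was brought forward from its day 20 values in these libraries, so that the day 20 difference between diets is given below as a description without a test.

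The ovaries came from A. aegypti females of a Poza Rica, Mexico, strain that were 4 to 7 days old at the meal. Blood-fed (BF) females took 1 meal of warmed sheep blood and were given no other, whereas sugar-fed (SF) females were the controls without blood, and females of both diets had 10% sucrose and the same rearing. Ovaries were taken 3, 10 and 20 days after the meal, pooled over females, and cleared of any eggs that had not been laid. The 6 groups held 4 BF and 3 SF libraries on day 3, 3 BF and 3 SF on day 10, and 3 BF and 3 SF on day 20, with replicate numbers 1, 2 and 4 in each and replicate 3 for day 3 BF alone. The libraries held between 34651820 and 56274885 read pairs on genes (median 48862876). Of the germline genes, osk had between 2554 and 3824 CPM (the read count scaled to the size of the library) and mael between 334 and 444 CPM in every library, both chosen after their values were seen. The other cell type checked was blood cells, whose 7 PPO genes summed to between 5.45 and 10.0 CPM. The muscle, gut and fat body lists matched no symbol, and neither did the germline symbols searched (vas, vasa, nanos, exu and exuperantia). The symbol nos, also planned for nanos, was not searched. In pooled ovaries, fewer cells of a type and less RNA per cell cannot be told apart.

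The genes lie next to each other on chromosome 1 of AaegL5.0. HSP70Ba is on the minus strand (chromosome 1, 280172798 to 280176289), with 7 exons that add up to 3415 bases and 2 annotated transcripts. HSP70Bb is on the plus strand (chromosome 1, 280177257 to 280179533) and is a single exon of 2277 bases. The genes point away from each other, with 967 bases between their 5' ends, and no other annotated gene overlaps either. Both are protein coding, and both positions match a RefSeq gene of the same assembly.

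The gene copies could be told apart in most reads. HSP70Ba collected 1330 reads over the 19 libraries, of which 1324 (99.5%) mapped uniquely. HSP70Bb collected 697 reads, of which 662 (95%) were unique and 35 fitted elsewhere as well. By group, its unique share was 94.8% in day 3 BF and 89.7% in day 3 SF, 88.9% in day 10 BF and 87.5% in day 10 SF, and 97.0% in day 20 BF and 83.3% in day 20 SF ovaries. Sequence sharing thus took a larger share of HSP70Bb in the groups with few reads. The handling of reads that fit several genes is not stated in the sources read here.

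Both genes were scarce in ovaries. HSP70Bb had fewer than 10 reads in 11 of the 19 libraries and was never at 0, and HSP70Ba had at least 15 reads in each. Per length, the authors' mean RPKM of HSP70Ba was 0.688 ± 0.721 (SD, n = 4) in day 3 BF and 0.126 ± 0.0669 (n = 3) in day 3 SF ovaries. On the same scale HSP70Bb averaged 0.617 in day 3 BF and 0.0797 in day 3 SF ovaries. The median of the 12253 protein-coding genes tested was 9.49 RPKM in day 3 BF and 10.0 RPKM in day 3 SF ovaries. In SF ovaries 11.3% to 12.1% of these genes lay below HSP70Ba and 4.64% to 8.37% below HSP70Bb, depending on the day. In day 20 BF ovaries, where the mean RPKM was highest, 30.1% of the genes lay below HSP70Ba and 29.1% below HSP70Bb.

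A pair of BF libraries held most of the HSP70 reads. Day 20 BF replicate 1 had 761 reads on the genes together and day 3 BF replicate 3 had 575. These amount to 65.9% of the 2027 HSP70 reads of the series. The next library, day 20 BF replicate 4, had 106, and the median of the other 17 libraries was 31. Both libraries with many reads were from blood-fed females, but they came from different days and carried different replicate numbers. The plot of CPM by group shows them standing apart for both genes.

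**Figure D1:**
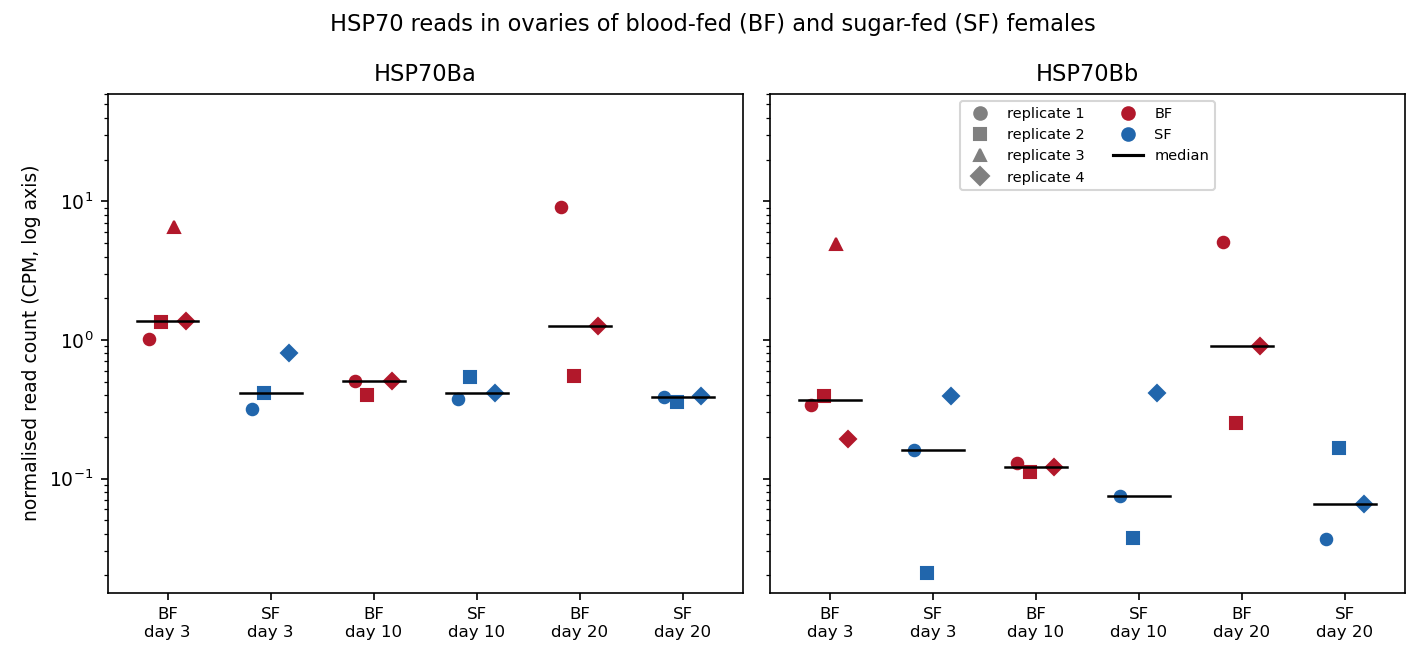
Normalised read count (CPM, log axis) of HSP70Ba (left) and HSP70Bb (right) in each library, by diet and day, with the marker shape giving the replicate number and the line the group median. Day 20 BF replicate 1 and day 3 BF replicate 3 are the highest libraries for both genes, at 9.06 and 6.54 CPM of HSP70Ba and 5.07 and 4.92 CPM of HSP70Bb.

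Other measures of these libraries are given beside that pattern. Day 3 BF replicate 3 was the only library of its replicate number. Its reads were 9.11% intronic, against 12.1% to 13.2% in the other 3 day 3 BF libraries, and 6.98% of its mapped pairs were intergenic, against 8.07% to 8.48%. Its PPO genes summed to 7.85 CPM, within the 7.15 to 9.20 CPM of that group, and its osk level was 3021 CPM, the highest of the 4. Day 20 BF replicate 1 had 5.01% intronic reads, below the 5.54% and 6.15% of the other day 20 BF libraries. Its 7.91 CPM of PPO genes lay between theirs. The part of these measures in the HSP70 levels was not tested.

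On day 3, HSP70Ba was higher in BF than in SF ovaries and HSP70Bb did not pass the test. HSP70Ba had 48, 48, 328 and 64 reads in BF replicates 1 to 4, and 16, 20 and 41 reads in SF replicates 1, 2 and 4. In CPM this was 1.02, 1.35, 6.54 and 1.38 in BF and 0.320, 0.416 and 0.809 in SF ovaries. Every BF library lay above every SF library, so that the groups did not overlap with or without replicate 3. How many of all genes separated in this way was not counted, so the separation is a description. The log2 fold change was 2.32 (SE 0.83, FDR p-value 0.0228 by edgeR's quasi-likelihood test with Benjamini-Hochberg adjustment over 13904 genes). Other measures moved with the same groups. Reads were 9.11% to 13.2% intronic in day 3 BF and 4.36% to 5.71% in day 3 SF ovaries, and 6.98% to 8.48% of mapped pairs were intergenic in BF against 4.70% to 5.49% in SF ovaries. The germline gene osk was lower in BF ovaries (log2 fold change -0.39, edgeR FDR p-value 0.00011). The germline gene mael was not called (log2 fold change -0.089, edgeR FDR p-value 0.256). The PPO genes summed to 7.15 to 9.20 CPM in BF and 6.78 to 10.0 CPM in SF ovaries. The part of all these measures in the HSP70 difference was not tested.

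HSP70Bb had 16, 14, 247 and 9 reads in day 3 BF replicates 1 to 4, and 8, 1 and 20 reads in SF replicates 1, 2 and 4. Outside BF replicate 3, the 9 to 16 reads of the BF libraries fell inside the 1 to 20 of the SF libraries. The groups overlapped, and the log2 fold change of 2.92 (SE 1.28) had an edgeR FDR p-value of 0.0575. Thus 1 of the 2 HSP70 genes was called on day 3, as a rise. Of all genes tested, 64.9% were called on that day and 32.3% were called as higher in BF ovaries, so that a call was common among genes of any kind.

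The day 3 call was lost when single libraries of either diet were left out. Without BF replicate 3, the log2 fold change of HSP70Ba was 1.24 (edgeR FDR p-value 0.138) and that of HSP70Bb 0.63 (FDR p-value 0.618), and neither gene was called. The HSP70Ba call was also lost without SF replicate 1 (2.04, FDR p-value 0.0878) or SF replicate 2 (2.16, FDR p-value 0.0781). HSP70Bb in turn was called without BF replicate 1, 2 or 4 (edgeR FDR p-values 0.0426, 0.0459 and 0.0349). It was also called without day 20 BF replicate 1 or 2 (edgeR FDR p-values 0.0373 and 0.0465), which are outside the comparison but enter the fitted spread. DESeq2 called both genes, with 2.90 and an adjusted p of 0.0134 for HSP70Bb. With both libraries of most HSP70 reads left out, an alternative chosen after these reads were seen, HSP70Ba was 1.27 higher (edgeR FDR p-value 0.00483) and HSP70Bb 0.66 (FDR p-value 0.502). Because every day 3 BF library of HSP70Ba lay above every SF library, leaving libraries out could not reverse its direction. The size of the HSP70Ba difference changed between these fits.

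On day 10 the HSP70 levels of the diets overlapped and no gene was called. HSP70Ba had 27, 18 and 25 reads in BF replicates 1, 2 and 4 and 20, 29 and 18 reads in the SF replicates. HSP70Bb had 7, 5 and 6 reads in BF and 4, 2 and 18 reads in SF ovaries. The highest HSP70Bb library of day 10 was thus SF replicate 4, at 0.416 CPM, above all 3 BF libraries at 0.111 to 0.130 CPM. The log2 fold change was 0.08 for HSP70Ba (SE 0.92, edgeR FDR p-value 0.962) and -0.46 for HSP70Bb (SE 1.60, FDR p-value 0.870). With 0 of 2 genes called, against 19.3% of all genes tested on that day, none had an unadjusted p under 0.05 either (0.932 and 0.778), and DESeq2 called 0 as well. At 2 to 29 reads per library, a difference of the size seen on day 3 without BF replicate 3 was not detectable with these standard errors. The difference between the day 3 and day 10 effects was 2.24 on the log2 scale for HSP70Ba (SE 1.23, edgeR FDR p-value 0.168) and 3.38 for HSP70Bb (SE 2.05, FDR p-value 0.215), so a difference between the days was not shown.

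On day 20, the day whose values brought HSP70Bb forward, the BF libraries spread widely. HSP70Ba had 488, 24 and 62 reads in BF replicates 1, 2 and 4, and 21, 15 and 18 reads in the SF replicates. HSP70Bb had 273, 11 and 44 reads in BF and 2, 7 and 3 reads in SF ovaries. For both genes every BF library lay above every SF library in CPM, a separation whose share among all genes was not counted. BF replicate 2 was close to the SF libraries at 0.552 CPM of HSP70Ba and 0.253 CPM of HSP70Bb, against SF highs of 0.393 and 0.166 CPM. The fitted log2 difference was 3.26 for HSP70Ba and 4.56 for HSP70Bb, and 1.27 and 2.73 without BF replicate 1. That library alone thus carried a large part of the size of the difference.

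Among SF ovaries, day 10 and day 3 overlapped in range. HSP70Ba averaged 0.444 ± 0.0886 CPM on day 10 and 0.515 ± 0.259 CPM on day 3 (SD, n = 3 each), and HSP70Bb 0.176 ± 0.209 CPM on day 10 and 0.192 ± 0.189 CPM on day 3. The log2 fold change was -0.21 for each gene (SE 0.91 for HSP70Ba and 1.5 for HSP70Bb, edgeR FDR p-values 0.942 and 0.968). With edgeR 0 of 2 genes were called, none at an unadjusted p under 0.05 (0.818 and 0.893) and none by DESeq2. Over all genes tested the background was 0.0719%, or 10 genes, so that few genes of any kind were called between these SF groups.

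Among BF ovaries, both genes were lower on day 10 than on day 3. HSP70Ba averaged 0.469 ± 0.0599 CPM (SD, n = 3) on day 10 and 2.57 ± 2.65 CPM (n = 4) on day 3. HSP70Bb averaged 0.121 ± 0.00967 CPM on day 10 and 1.46 ± 2.31 CPM on day 3. For each gene all day 10 libraries lay below all day 3 libraries, though the share of all genes that separated likewise was not counted. The log2 fold change was -2.45 for HSP70Ba (SE 0.84, edgeR FDR p-value 0.0192) and -3.58 for HSP70Bb (SE 1.37, FDR p-value 0.0332), which makes 2 of 2 genes called lower, against 31.2% of all genes tested. This comparison shares its day 3 BF libraries with that of the diets on day 3. Intronic reads were 4.93% to 5.83% on day 10 and 9.11% to 13.2% on day 3 in these ovaries. The germline gene osk was higher on day 10 (log2 fold change 0.42, edgeR FDR p-value 6.7e-05). In contrast, mael was not called (log2 fold change -0.079, edgeR FDR p-value 0.317). The part of these measures in the HSP70 values was not tested. Without BF day 3 replicate 3 the values were -1.37 (edgeR FDR p-value 0.11) and -1.29 (FDR p-value 0.33), and 0 genes were called, as was also the case without any 1 of the day 10 BF libraries. The plot of fold changes with each library left out shows how far single libraries moved each value.

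**Figure D2:**
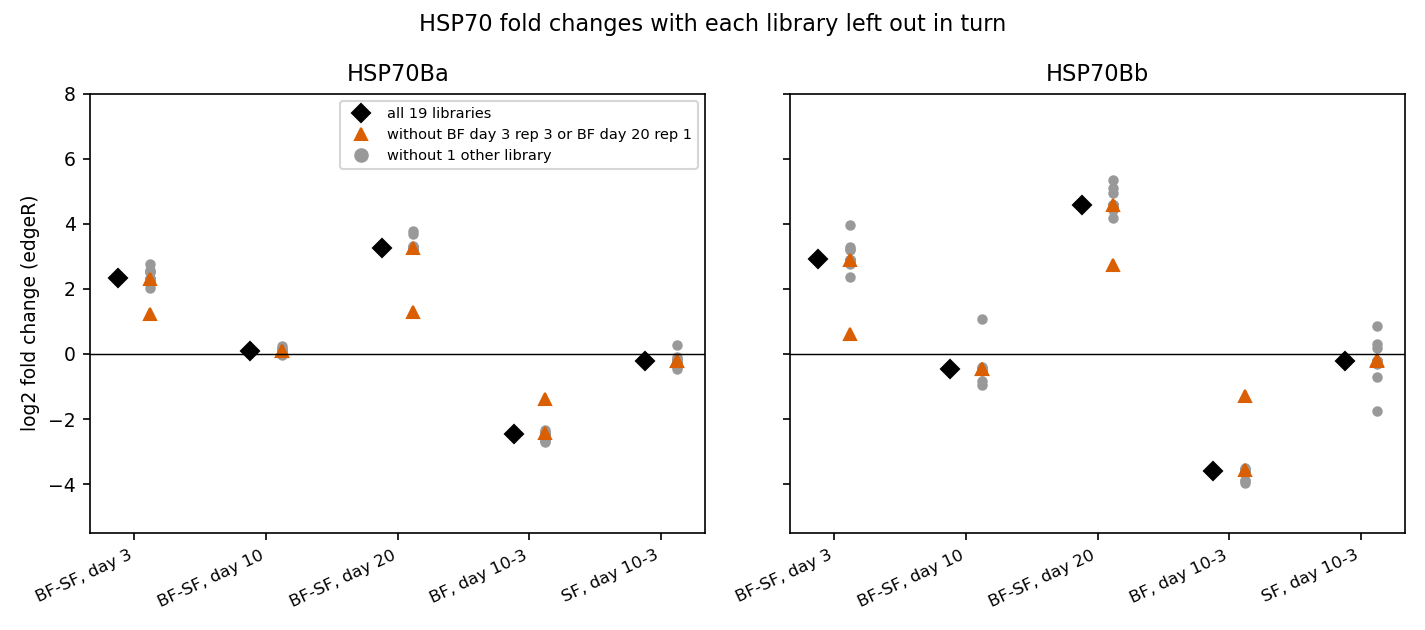
Log2 fold change (edgeR) of HSP70Ba (left) and HSP70Bb (right) in 5 comparisons, BF minus SF on each day and day 10 minus day 3 within BF and within SF ovaries, with all 19 libraries (diamonds) and with 1 library left out (triangles for day 3 BF replicate 3 or day 20 BF replicate 1, circles for the others). The day 3 difference of HSP70Bb is 2.92 with all libraries and 0.63 without BF replicate 3, and its day 20 difference is 4.56 with all libraries and 2.73 without BF replicate 1.

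Ordered by median CPM, HSP70Ba ran as day 3 BF (1.37), day 20 BF (1.27), day 10 BF (0.503), day 10 SF (0.416), day 3 SF (0.416) and day 20 SF (0.386). Neighbours in this order overlapped in range, apart from day 20 BF and day 10 BF, which were separated by 0.552 and 0.504 CPM. HSP70Bb ran as day 20 BF (0.902), day 3 BF (0.367), day 3 SF (0.160), day 10 BF (0.121), day 10 SF (0.0745) and day 20 SF (0.0654). There every group overlapped with the next in the order. In these orders the BF groups of days 3 and 20 came first for both genes and day 20 SF came last. The places of the day 20 groups are not independent of the choice of HSP70Bb from its day 20 values, and are a description. Day 20 SF held only 2, 7 and 3 reads of HSP70Bb.

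The spread between replicates differed between groups. The biological coefficient of variation that edgeR fitted over all 6 groups was 0.663 for HSP70Ba and 1.01 for HSP70Bb. The common value for all genes was 0.160, but genes of like average level had medians of 0.241 and 0.26. Of those genes, 96.6% lay below HSP70Ba and 98.7% below HSP70Bb. The HSP70 values include the day 20 libraries from which HSP70Bb was brought forward and are a description. The coefficient of variation of HSP70Ba CPM was 103% in day 3 BF and 50.3% in day 3 SF ovaries, 12.8% in day 10 BF and 20.0% in day 10 SF ovaries, and 130% in day 20 BF and 5.11% in day 20 SF ovaries. For HSP70Bb it was 158% in day 3 BF and 126% in day 20 BF ovaries, but also 119% in day 10 SF and 98.5% in day 3 SF ovaries, where counts were 1 to 20 reads.

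The genes did not contribute equally to each library. HSP70Bb made up 43.0% of the reads of the pair in day 3 BF replicate 3 (95% Wilson interval 39.0% to 47.0%) and 35.9% in day 20 BF replicate 1 (32.5% to 39.3%). In the other day 3 BF libraries its share was 25%, 22.6% and 12.3%. In all, the share ran between 4.76% of 21 reads in day 3 SF replicate 2 and 50.0% of 36 reads in day 10 SF replicate 4, whose interval was 34.5% to 65.5%. The intervals cover counting error only. Per length, the authors' RPKM of HSP70Bb was 1.19 times that of HSP70Ba in day 3 BF replicate 3 and 0.858 times in day 20 BF replicate 1. It was 0.360 to 0.469 times HSP70Ba in the 3 day 10 BF libraries. Ratios near those of the libraries with many reads were also found at low counts, such as 0.857 in day 3 SF replicate 1 and 0.811 in day 3 SF replicate 4. The highest ratio, 1.59, came from the 36 reads of day 10 SF replicate 4, so that the ratio did not follow the HSP70 level alone.

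**Figure D3:**
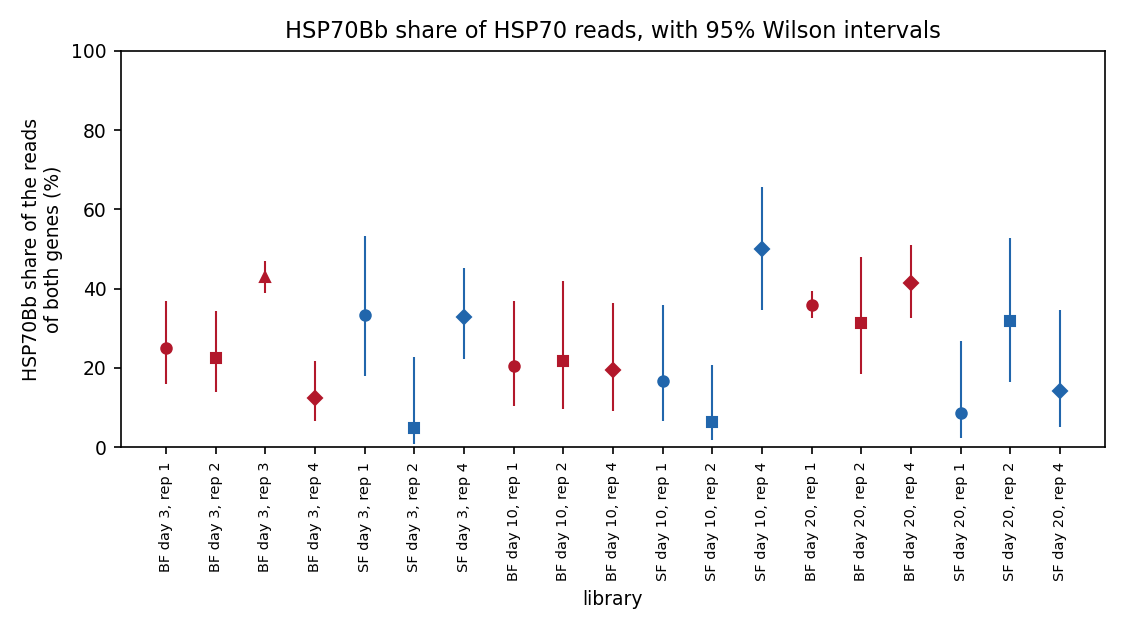
Share of HSP70Bb in the reads of both HSP70 genes (%) in each of the 19 libraries, BF in red and SF in blue, with 95% Wilson intervals as bars. The intervals are narrow in day 3 BF replicate 3 (43.0%) and day 20 BF replicate 1 (35.9%), which hold 575 and 761 reads, and wide in libraries with 21 to 36 reads.

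The genes whose levels across the 19 libraries were most like HSP70Bb were its neighbours on the chromosome. Of 13902 other genes tested, AAEL027610 had the highest Pearson correlation of log2 CPM with HSP70Bb (r = 0.97, Spearman's rho = 0.92) and AAEL020330 the next (r = 0.92, rho = 0.78). HSP70Ba itself stood at r = 0.89 (rho = 0.68). For HSP70Ba the same genes led in the other order (r = 0.94 for each). Without day 3 BF replicate 3 and day 20 BF replicate 1, the libraries farthest from the median, r with HSP70Bb was 0.91 for AAEL027610, 0.75 for AAEL020330, 0.75 for AAEL000508 on chromosome 3 and 0.64 for HSP70Ba over 17 libraries. Without these libraries AAEL020330 thus no longer stood above AAEL000508. The points share the diet and day groups and the depth of each library, and the values are a description.

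AAEL027610 (chromosome 1, 280147157 to 280149418, minus strand) and AAEL020330 (chromosome 1, 280188751 to 280190941, minus strand) are the nearest annotated genes on either side of the pair, at distances of 23379 and 9217 bases. Both are protein-coding genes with a single exon, of 2262 and 2191 bases, and the files give them no symbol. On day 3, AAEL027610 had 22, 25, 248 and 23 reads in BF and 9, 9 and 24 reads in SF ovaries. On day 20 it had 235, 14 and 67 reads in BF and 9, 12 and 9 reads in SF ovaries. The day 20 groups of AAEL027610 did not overlap, though the share of all genes that separated likewise was not counted. AAEL027610 and AAEL020330 are named for their likeness to HSP70Bb over these same libraries, day 20 included. Their values are thus a description. AAEL020330 had 28, 20, 151 and 21 reads in day 3 BF and 8, 11 and 19 reads in day 3 SF ovaries. On day 20 it had 226, 6 and 38 reads in BF and 3, 8 and 10 reads in SF ovaries. Its day 20 groups overlapped, with BF replicate 2 at 0.138 CPM, below SF replicates 2 and 4 at 0.190 and 0.218 CPM. The same BF libraries, day 3 replicate 3 and day 20 replicate 1, were thus the highest for both HSP70 genes and for the nearest gene on each side. Of the reads of AAEL027610, 61.8% came from these libraries and 99.7% were unique, and of those of AAEL020330 60.7% and 96.0%.

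**Figure D4:**
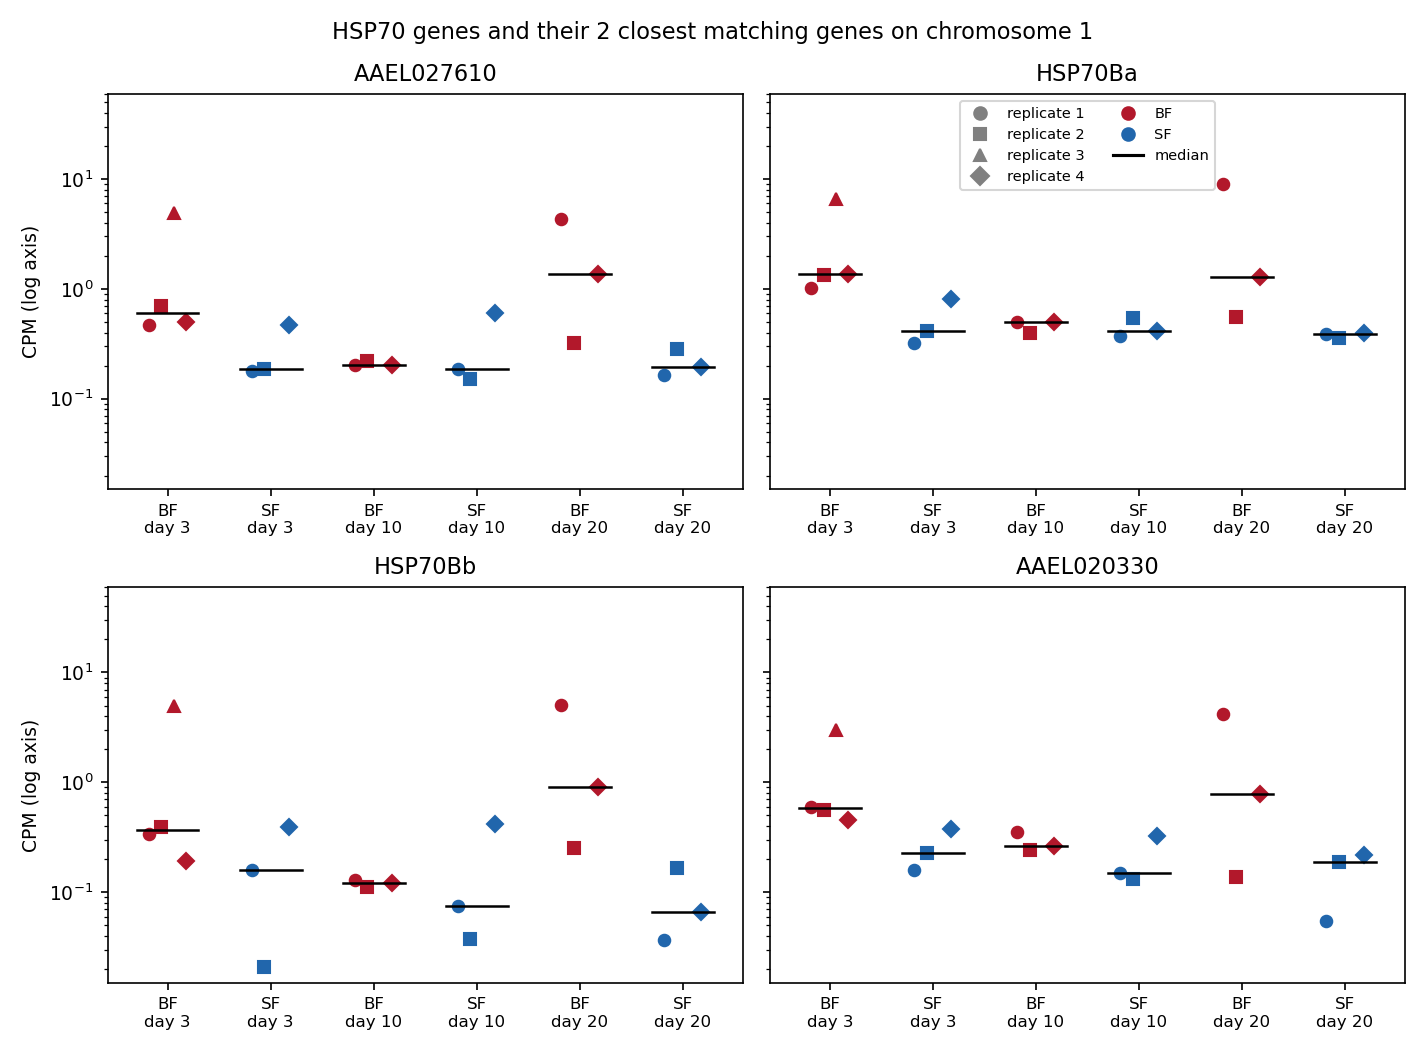
CPM (log axis) by diet and day of AAEL027610, HSP70Ba, HSP70Bb and AAEL020330, in their order along chromosome 1, with markers for replicates and lines for group medians. All 4 genes are highest in day 3 BF replicate 3 and day 20 BF replicate 1, at 4.94 and 4.36 CPM of AAEL027610 and 3.01 and 4.2 CPM of AAEL020330.

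The next genes by likeness to HSP70Bb differed in how far they moved. AAEL027539 (chromosome 1, 284869084 to 284903303, 15 exons, r = 0.81) reached 1.91 CPM in day 3 BF replicate 3, which is 2.07 times its median over the libraries, whereas HSP70Bb reached 30.5 times its median in its highest library. AAEL014363 (chromosome 3, 75230240 to 75232429, 5 exons, r = 0.78) had 7.07 CPM in day 3 BF replicate 3, 54.3 times its median, and no more than 0.984 CPM elsewhere. AAEL000508 (chromosome 3, 161179435 to 161182495, 6 exons, r = 0.77) stood between 2.33 and 6.52 CPM, with 43.1% of its reads unique. None of these has a symbol in the files.

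The annotation gives HSP70Ba introns, but its exons hold 3415 of the 3492 bases of the gene. Over the 19 libraries 56 of its 1330 reads (4.21%) lay in introns and 9 spanned an exon junction. With so little intron annotated, these counts are a description only. No other heat shock gene could be followed by name: lists of HSP70 relatives, HSP90, small heat shock proteins, chaperonins, J-domain proteins, heat shock factor and co-chaperones matched 0 symbols in the files or in RefSeq's table. Their values were not analysed here.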

How the data were processed

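RNA was sequenced in 19 libraries of pooled A. aegypti ovaries, from a stranded total RNA kit after removal of rRNA. The authors trimmed read pairs and mapped them to AaegL5.0 in the CLC genomics workbench (v.20). The deposited counts are whole, unnormalised numbers of read pairs per gene. The deposited RPKM, computed by the authors from exon reads, exon length and mapped pairs, served here only for levels per length. The annotation release behind the counts, the strand setting and the placing of shared reads are not stated in the sources read here.

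Total gene reads were tested with edgeR 4.0.16 in R 4.3.3 over all 6 groups (filterByExpr with minimum count 10 and minimum total 15, TMM, robust quasi-likelihood fit with 13 residual degrees of freedom). The fit kept 13904 of 19381 genes, and calls were made at FDR p-values under 0.05. CPM was scaled by TMM, with a prior count of 2 where log2 values were correlated. No replicate pair agreed within sampling noise (chi-square per degree of freedom at least 15.2 over 21 pairs). The methods call the replicates biological and place day 3 BF replicate 3 in another replicate than the rest. What set the replicates apart is not stated, and p-values measure the spread between these libraries.

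Alternatives were DESeq2 1.42.0, RLE, library size alone, no low-count filter, unique gene reads, exon reads, only the groups compared, the replicate number as a block, and each library left out. Leaving out both libraries with most HSP70 reads was added after seeing the data. The model was also run on simulated counts with the same spread for every gene, which does not bear on genes as variable as these. The genes named are both HSP70 genes and the 5 others with the highest correlation with HSP70Bb. The members and lists were chosen with earlier results of these data known. Promoter and protein sequences were not used here. Python 3.11.15 (pandas 2.3.3, numpy 2.4.6, scipy 1.17.1, matplotlib 3.10.9) made the tables and plots.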

Additional observations from a re-analysis of the deposited data

Results flagged for a closer look

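Within the day 3 BF group of 4 libraries, replicate 3 lay far from the other 3 for both HSP70 genes. Its gap to the nearest library was 0.935 of the group's whole range for HSP70Ba CPM and 0.958 for HSP70Bb CPM, above Dixon's 95% critical value of 0.829 for 4 samples. The limit assumes normally distributed values, which was not tested, and CPM was used without taking logs. No rate of passing by chance is therefore drawn from it. Groups of 3 libraries were not examined in this way, which leaves out day 20 BF replicate 1. The genes are neighbours and share the library, so that these are not separate observations.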

How the results depend on the processing

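On day 3, 1 of the 2 HSP70 genes was called, with 2 by DESeq2, 0 with the replicate number as a block, and 0 to 2 when 1 library was left out. For BF day 10 against BF day 3, 2 genes were called, with 1 without the low-count filter, 1 in a fit of the groups compared only, 1 without both libraries of most HSP70 reads, 0 with the block, and 0 to 2 when 1 library was left out. By construction, the block removes the weight of BF replicate 3, the only library of its number. With it, the day 3 log2 fold change of HSP70Ba was 1.28 (edgeR FDR p-value 0.148). Same-numbered BF and SF libraries deviated together only weakly (correlations 0.000929 to 0.168, above 0.1 in 2 of 9 pairs), so that the numbers were not taken to pair them. On day 10, and between the SF groups, 0 genes were called under every alternative run. In the fit of the groups compared only, the low-count filter did not keep HSP70Bb for these comparisons, so that alternative covers HSP70Ba alone. With each library left out, the log2 fold change ran from -0.037 to 0.26 for HSP70Ba and from -0.95 to 1.08 for HSP70Bb on day 10, and from -0.46 to 0.27 and from -1.74 to 0.86 for SF day 10 against SF day 3, so that their direction is not settled. The day 20 difference ran from 1.27 to 3.79 for HSP70Ba and from 2.73 to 5.33 for HSP70Bb, and was 1.27 and 2.71 without both libraries of most HSP70 reads. The cause of the changes under DESeq2, the filter and the narrower fit was not tested. Alternatives for a list of other heat shock genes were not run because the list matched no symbol. Depth limits HSP70Bb, with 11 of 19 libraries under 10 reads, against 0 for HSP70Ba.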
